A study of Mus musculus with 4 samples.

Results

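The cells described here carry transcripts of the basophil lineage and were found among droplets labelled as CD4 T cells. They are called marker-positive cells, since the data do not bear out a basophil label for all of them. A kept cell counted as one when it held at least 1 UMI (unique molecular identifier, 1 captured transcript) of at least 2 of 6 genes: Mcpt8, Prss34, Cpa3, Fcer1a, Ms4a2 and Cyp11a1. That rule found 77 of 34918 kept cells, 53 of 19020 in replicate 1 and 24 of 15898 in replicate 2. Of the 77, 33 were low in T cell receptor transcripts and each of these held Gata2, Cd200r3 or Hdc. The other 44 held T cell receptor transcripts as other kept cells do, and 18 of those held any of the 3 genes. The 44 had fewer UMIs per cell at the median than the 33, which limits detection. The other kept cells and the free RNA of each library were the 2 sets the marker-positive cells were compared with. Free RNA was taken from barcodes under 100 UMIs, which hold too little RNA to be cells.

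All cells came from mice with graft-versus-host disease, in which transplanted donor lymphocytes attack the tissues of the host, at 4 weeks after transplantation. The labels name the cells as CD4 T cells and the strain as BALB/c RAG2-/- TS1 Tg, in which a T cell receptor transgene is carried without RAG2, the recombinase that rearranges lymphocyte receptor genes; every library shares this. Spleen, colon, skin, small intestine epithelium and small intestine lamina propria were pooled, and no cell could be given a tissue because the hashtag libraries list 0 hashtag features. The CD4 T cells were taken by fluorescence-activated sorting after enzyme digestion of the gut and skin, and the labels give neither the gate nor the animal a cell came from. Whether the marker-positive cells were of donor or host origin is not given either. There were 2 replicates with 1 expression library each, and nothing says that they were separate animals, so the p-values below measure only the spread between these 2 pooled libraries.

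Basophils are rare granulocytes that arise in the bone marrow under the transcription factor GATA2 and the cytokine IL-3. They carry the high-affinity IgE receptor, and when it is crosslinked they release histamine, leukotrienes, chemokines and IL-4. Their granules hold proteases, of which Mcpt8 and Prss34 are the ones that mark mouse basophils, while mast cells, which share the receptor and carboxypeptidase A3, carry other chymases and tryptases.

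Promoters of 2 genes that chose the cells, Prss34 and Ms4a2, and of Cd200r3 are shown because Gata2, which encodes a factor that binds GATA sequences, was itself among the transcripts most raised in the cells. The windows run from 250 bases before to 50 bases after the RefSeq gene start, in build GRCm38.p6, and capitals mark any of 4 GATA motifs on either strand. These were the motif AGATAA, its variant ending in G (AGATAG), and the forms that begin with T, first TGATAA and then TGATAG, which can overlap each other.
Prss34, chr17:25298144-25298443, plus strand: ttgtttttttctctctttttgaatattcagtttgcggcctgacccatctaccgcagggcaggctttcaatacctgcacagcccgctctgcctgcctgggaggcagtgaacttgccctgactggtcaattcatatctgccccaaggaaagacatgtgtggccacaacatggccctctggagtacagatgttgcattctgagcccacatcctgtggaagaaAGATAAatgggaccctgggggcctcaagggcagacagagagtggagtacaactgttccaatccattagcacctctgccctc
Ms4a2, chr19:11623670-11623969, minus strand: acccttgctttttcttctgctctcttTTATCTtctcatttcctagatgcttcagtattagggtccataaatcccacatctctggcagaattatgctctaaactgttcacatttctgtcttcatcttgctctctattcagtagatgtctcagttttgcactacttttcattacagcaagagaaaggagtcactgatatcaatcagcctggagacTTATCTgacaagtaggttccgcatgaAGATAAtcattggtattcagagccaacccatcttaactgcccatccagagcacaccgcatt
Cd200r3, chr16:44943428-44943727, plus strand: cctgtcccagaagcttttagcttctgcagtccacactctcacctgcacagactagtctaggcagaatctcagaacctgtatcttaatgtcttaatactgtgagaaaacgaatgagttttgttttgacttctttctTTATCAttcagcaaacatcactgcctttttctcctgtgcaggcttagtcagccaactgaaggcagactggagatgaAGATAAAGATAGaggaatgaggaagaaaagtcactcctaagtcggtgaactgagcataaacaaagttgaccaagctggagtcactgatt
Cd200r3 is a gene outside the rule, and the 3 were picked because they hold matches. Of the 6 rule genes, 5 had a match in at least 1 of their 7 windows. Mcpt8, 1 of the 2 windows of Cyp11a1 and both windows of Gata2 held 0 matches and are not printed. Among all 32851 mouse windows of this length, 29.8% held at least 1 match and 7.77% held at least 2, against the 3 matches each of Ms4a2 and Cd200r3. A match describes these letters only and is not a bound site.

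In the GENCODE annotation of mm10, the build of the files, Mcpt8 lies on chromosome 14 (56082166-56085273, minus strand) and Prss34 on chromosome 17 (25298394-25300165, plus strand). Cpa3 lies on chromosome 3 (20215620-20242181, minus strand), Fcer1a on chromosome 1 (173221284-173227214, minus strand), Ms4a2 on chromosome 19 (11615523-11623719, minus strand) and Cyp11a1 on chromosome 9 (58006411-58027023, plus strand).

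The cells were 0.279% of the kept cells of replicate 1 (95% exact binomial interval 0.209 to 0.364) and 0.151% of those of replicate 2 (0.0967 to 0.225). Such intervals cover counting error only. The expression libraries held 89427990 and 108082997 UMIs in all, and the marker-positive cells held 198570 and 175575 of them. Their median depth was 2349 and 4490.5 UMIs per cell, against 2689 and 3698 in the other kept cells. Between the libraries, 599 barcodes of kept cells were shared, and 4 marker-positive cells, 2 in each library, were among them. Whether the 2 of replicate 1 have the same barcodes as the 2 of replicate 2 was not checked. The number of shared barcodes expected at random was not worked out, so the independence of the 2 libraries was not tested.

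The rule has a threshold, and in replicate 1 many cells lay on either side of it. There, 16 cells held exactly 2 of the 6 genes, 13 held 3, 6 held 4, 10 held 5 and 8 held all 6, while 260 cells just outside held 1. In replicate 2, 5 cells held 2 genes, 1 held 3, 1 held 4, 3 held 5 and 14 held all 6, while 601 cells just outside held 1. Prss34 was at 2375 and 147 CPM (UMIs of a gene scaled to a total of 1e+06 UMIs) in cells with 2 of the genes, and at 114 and 113 CPM in cells with 1. With 4 genes asked for instead of 2, the shares were 0.126% and 0.113%.

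The 6 rule genes chose the cells, so their levels are a description with no test. Mcpt8, a granule protease, was at 6577 CPM in replicate 1 and 12929 CPM in replicate 2, against 1.05 and 1.74 CPM in other kept cells and 29.4 and 14.3 CPM in free RNA. Prss34, a second basophil granule protease, was at 17057 and 31383 CPM, against 1.85 and 5.36 CPM in other kept cells and 67.0 and 47.2 CPM in free RNA. Cpa3, carboxypeptidase A3, was at 1274 and 2842 CPM, against 0.295 and 0.253 CPM in other kept cells. Each of the 3 was present in free RNA at a small fraction of its level in the cells.

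The IgE receptor genes behaved alike. Fcer1a, the chain that binds IgE, was at 564 and 877 CPM, against 0.112 and 0.101 CPM in other kept cells. Ms4a2, the receptor's beta chain, was at 730 and 1116 CPM, against 0.182 and 0.152 CPM. Cyp11a1, the enzyme that starts steroid synthesis from cholesterol, was at 519 and 672 CPM, against 0.337 and 0.189 CPM. The cells held between 81.1% and 96.2% of all UMIs of each of the 6 genes in kept cells of replicate 1, and between 88.7% and 96.1% in replicate 2.

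**Figure D1:**
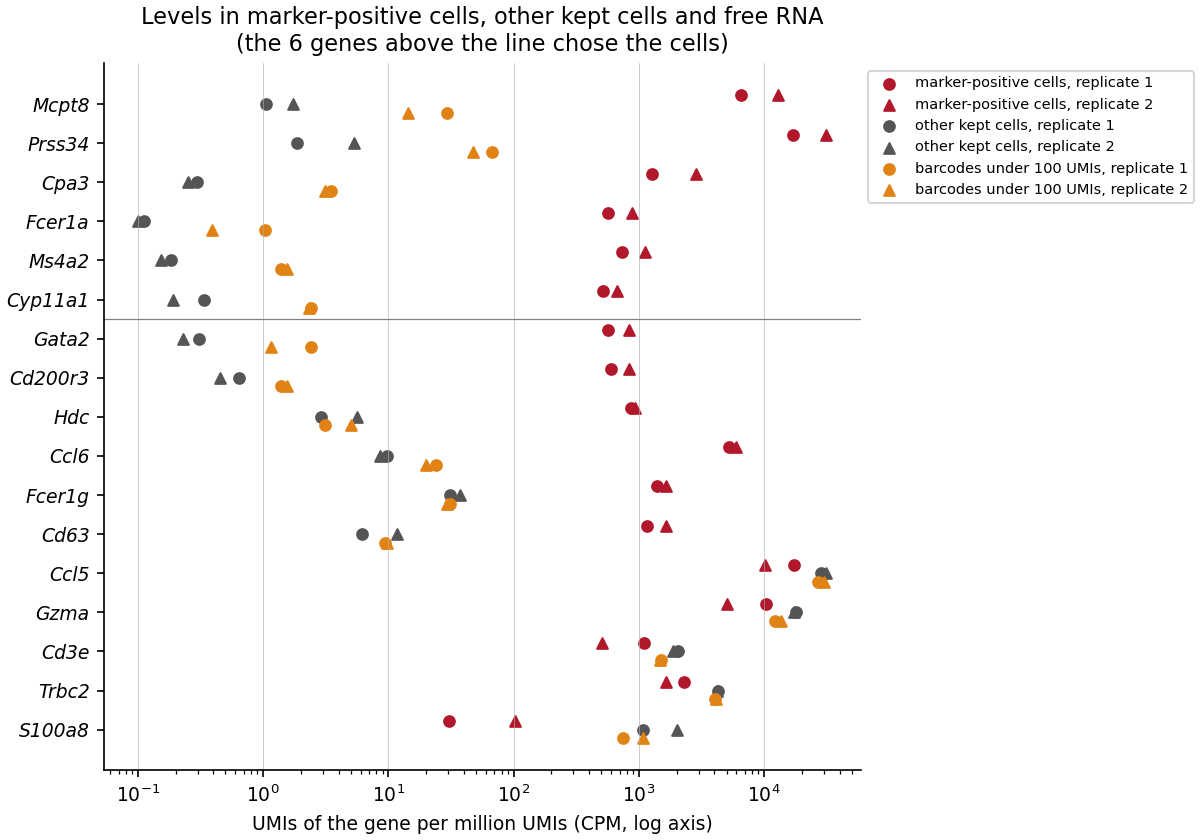
Levels of 17 genes in marker-positive cells, other kept cells and free RNA, in CPM on a log axis, with 1 point for each library and class. The 6 genes above the line chose the cells; Gata2, at 569 and 832 CPM in the cells, and Ccl6, at 5273 and 5986 CPM, are also far above the other 2 classes, while Cd3e, at 1098 and 507 CPM, and Trbc2, at 2286 and 1652 CPM, lie below them.

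Genes outside the rule were compared on UMIs summed per library and class with edgeR's quasi-likelihood test, with the library as a block and Benjamini-Hochberg adjustment over 10005 genes. Of these genes, 611 were higher in marker-positive cells than in other kept cells (6.11% of those tested) and 434 were lower (4.34%), or 1045 in either direction (10.4%), at adjusted p under 0.05. The cells were chosen by 6 of their own transcripts, so transcripts that travel with those 6 had to differ, and these calls describe the cells without being independent evidence of their identity. Against free RNA, 654 genes were higher (6.54%) and 471 lower (4.71%), or 1125 in either direction (11.2%). A gene rare in both other kept cells and free RNA passed the low-count filter only through the marker-positive cells. It could then be called higher and not lower, and the counts of rises here and below include such genes. Gata2, Cd200r3, Hgf, Il6, Csf2rb2 and Csrp3, for instance, were too rare in other kept cells to be called lower than them. Fold changes below are log2 values with the SE of the fit, marker-positive cells over other kept cells unless another pair is named, and CPM values are for replicate 1 and replicate 2 in that order.

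Of 27 basophil genes outside the rule, 21 rose, 0 fell and 6 did not pass, with a median log2 fold change of 7.0, against -0.12 over all genes tested. Cd200r3, Gata2, Hgf, Il6 and Csf2rb2 are among the 21 and could not have been called lower. Cd200r3, an activating receptor of basophils and mast cells, was at 594 and 826 CPM, against 0.645 and 0.455 CPM in other kept cells (log2 fold change 10.28 ± 0.28, adjusted p = 8.21e-19). Cd63, a granule membrane protein that reaches the surface on degranulation, was at 1153 and 1657 CPM, against 6.20 and 11.6 CPM (7.27 ± 0.14). Ifitm1 was at 1264 and 917 CPM, against 371 and 248 CPM (1.78 ± 0.10). The 6 that did not pass were Cd200r1, Itgb7, Cd69, Ccl4, Gpr171 and Cd244, and each of them was also present in the other kept cells.

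Gata2 led the transcription factors. It was at 569 and 832 CPM in the cells, against 0.309 and 0.227 CPM in other kept cells (11.28 ± 0.30, adjusted p = 6.34e-19). At that level in other kept cells, Gata2 could only be called higher. Cebpa, a granulocyte factor, was at 131 and 262 CPM, against 0.884 and 0.947 CPM (7.66 ± 0.34). Runx1 was at 307 and 370 CPM, against 71.1 and 83.5 CPM (2.09 ± 0.16), and Cebpb rose by 2.05 ± 0.11. Of the 16 factors listed, 9 rose, 3 fell and 4 did not pass. Those that fell were Irf8, Bhlhe40 and Id2, and Id2, an inhibitor of helix-loop-helix factors, was at 614 and 444 CPM, against 1049 and 1069 CPM (-1.04 ± 0.14). Gata1 was close to its counting limit, with 5 and 9 UMIs in all the cells.

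Of 17 tested genes of the IgE receptor signalling list of 18, 7 rose, 1 fell and 9 did not pass. Fcer1g, the signalling chain of the receptor, was at 1395 and 1629 CPM, against 30.8 and 37.1 CPM (5.44 ± 0.10). Lat2, an adaptor used by the receptor, was at 342 and 416 CPM, against 67.6 and 56.5 CPM (2.56 ± 0.17). The kinase genes Lyn (3.56 ± 0.42), Syk (4.48 ± 0.72) and Btk (6.51 ± 0.43) also rose. Lat, the adaptor that T cells use beside their receptor, was at 519 and 467 CPM, against 819 and 814 CPM (-0.77 ± 0.11).

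Of 9 tested genes of the mediator synthesis list of 11, 6 rose, 0 fell and 3 did not pass (Lta4h, Hpgds and Padi2). Hdc, the enzyme that makes histamine, was at 856 and 934 CPM, against 2.87 and 5.61 CPM (7.72 ± 0.19). Alox5, the first enzyme of leukotriene synthesis, was at 141 and 165 CPM, against 0.505 and 0.834 CPM (7.81 ± 0.36). Its partner Alox5ap was at 1355 and 1794 CPM, against 16.6 and 22.4 CPM (6.29 ± 0.11). Slc18a2, Ptgs2 and Pla2g4a also rose, and Ltc4s, the leukotriene C4 synthase gene, had 1 UMI in all the cells and was not tested.

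Among 14 cytokine genes, 6 of the 10 tested rose and 3 fell. Il4, the cytokine most tied to basophils, was at 267 and 96.8 CPM, against 0.673 and 1.52 CPM (7.40 ± 0.47). Il4 was held by 23 of the 77 cells, and 1 cell of replicate 1 held 28 of the 70 Il4 UMIs in all; without it, Il4 was at 134 CPM in replicate 1. Il6 had 21 and 9 UMIs, or 106 and 51.3 CPM, against 0.0701 and 0.0632 CPM, and Hgf, hepatocyte growth factor, was at 206 and 273 CPM, against 0.126 and 0.0379 CPM. Osm (4.92 ± 0.34) and Csf1 (1.40 ± 0.19) rose as well, and the call of Csf1 was lost when each cell was thinned to 1500 UMIs.

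The cytokines that fell were Il13, Csf2 and Tnf. Il13 was at 25.2 and 5.70 CPM, against 61.2 and 70.7 CPM in other kept cells and 71.5 and 75.9 CPM in free RNA (-2.08 ± 0.47 against other kept cells). Csf2 was at 5.04 and 28.5 CPM, against 150 and 134 CPM (-3.19 ± 0.40). Il5, Il9, Lif and Il1b had 0 UMIs in the cells, which allows up to 15.1 and 17.1 CPM.

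Chemokine genes were among the most abundant transcripts of the cells. Ccl6 was at 5273 and 5986 CPM, against 9.76 and 8.51 CPM in other kept cells and 23.8 and 20.1 CPM in free RNA (9.22 ± 0.086 against other kept cells, adjusted p = 2.36e-28). Ccl9 was at 710 and 706 CPM, against 1.77 and 1.71 CPM (8.62 ± 0.19). Ccl3 was at 3258 and 1749 CPM, against 692 and 890 CPM (1.65 ± 0.16). Ccl4 was at 5801 and 3138 CPM, against 3483 and 4181 CPM, so the libraries went opposite ways, and it did not pass (0.17 ± 0.17, adjusted p = 0.63).

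Receptors for IL-3 and IL-33 rose. Il3ra, the IL-3 binding chain, was at 80.6 and 131 CPM, against 11.2 and 9.86 CPM (3.27 ± 0.41). The shared beta chain Csf2rb was at 151 and 262 CPM, against 1.25 and 1.84 CPM (7.0 ± 0.30), and the mouse IL-3 beta chain Csf2rb2 at 95.7 and 120 CPM, against 0.266 and 0.227 CPM (8.69 ± 0.42). Il1rl1, the IL-33 receptor, rose by 5.23 ± 0.58 and Il18r1 by 1.00 ± 0.19, a call that thinning also ended. Of 17 tested genes of 21 cytokine receptors, 6 rose, 3 fell (Il2rg, Il2ra and Ifngr1) and 8 did not pass.

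Several lists described the cells further. The lists share genes, so their counts are not separate results. Of the 27 basophil genes, Gata2, Il4, Il6, Osm, Hgf, Hdc, Fcer1g, Lat2, Il3ra, Csf2rb and Csf2rb2 were counted again in the lists above. Cd200r3 is counted again among the receptors of myeloid cells below. Of 10 tested granule genes outside the rule, 7 rose and 2 fell; Srgn, the proteoglycan that packs granule proteases, was at 2835 and 3583 CPM, against 1865 and 1978 CPM (0.69 ± 0.10, not called after thinning), and Serpinb1a rose by 3.89 ± 0.14. Of 18 tested adhesion and migration genes, 9 rose and 0 fell, with Cd9 (4.67 ± 0.12), C3ar1 (7.66 ± 0.61), Cxcr2 (5.95 ± 0.42) and C5ar1 (4.12 ± 0.48) among them. Of 8 tested inhibitory and related receptors of myeloid cells, 7 rose and 0 fell, Fcgr3 by 6.10 ± 0.33. Of 12 progenitor and early granulocyte genes, 8 rose and 0 fell; Mpo was at 90.6 and 245 CPM, against 5.39 and 2.68 CPM (5.33 ± 0.47), and Itga2b, an integrin chain of early haematopoietic cells, rose by 8.75 ± 0.50. Of 13 immediate early and heat shock genes, 3 rose (Fos, Jun and Ier2) and 4 fell (Atf3, Hspa1a, Hspa1b and Hspa8). Of 14 proliferation genes, 1 rose (Hmgb2), 1 fell (Tubb5) and 12 did not pass. Of 10 tested interferon response genes, 0 rose and 5 fell.

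Genes named by size alone, and in none of the lists, were few. Csrp3, which encodes a muscle LIM protein, was at 292 and 228 CPM, against 0.126 and 0.0632 CPM (11.33 ± 0.37), and Cyp4f18 was at 242 and 484 CPM, against 0.575 and 0.480 CPM (9.33 ± 0.32). D430036J16Rik had 9 UMIs in the cells of each library, and it had 0 UMIs in other kept cells. The largest falls were mostly of intestinal epithelial genes. Camp, a neutrophil gene, was also among the 10 largest, at 10.1 and 11.4 CPM, against 329 and 552 CPM (-5.38 ± 0.33). Reg3b, Defa29, Fabp1 and Krt8 had 0 UMIs in the cells, while each was present in other kept cells of both libraries.

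Markers of other granulocytes and of mast cells were checked beside these results. Of 12 mast cell genes, 5 had 0 UMIs in the cells, among them the tryptase genes Tpsb2 and Tpsab1 and the receptor genes Mrgprb1 and Mrgprb2. The summed level of the 12 was 710 CPM in replicate 1 and 11.4 CPM in replicate 2, against 25.8 and 24.02 CPM in other kept cells. All 94 UMIs of Mcpt4 and 30 of 32 UMIs of Cma1, both chymases of mast cells, were in 1 cell of replicate 1. That cell held 8251 UMIs, with 41 of Cpa3, 25 of Mcpt8, 6 of Fcer1a, 2 of Kit and 3 of Gata2, and 0 of Prss34, Cd200r3, Hdc and Ccl6. Of the 2 mast cell genes tested, Mitf, a transcription factor of mast cells, rose on 3 and 1 UMIs (4.16 ± 1.01). Mitf passed the low-count filter only through those UMIs. Kit, the stem cell factor receptor on which mast cells depend, was at 30.2 and 5.70 CPM in all the cells, against 25.1 and 23.04 CPM (-0.41 ± 0.55, adjusted p = 0.74).

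Of 9 eosinophil genes, 2 were tested and rose, namely Alox15 (10.00 ± 0.47) and Ccr3 (4.54 ± 0.81). The 9 genes summed to 1.53 and 1.86 CPM in other kept cells and 2.42 and 1.94 CPM in free RNA. Genes this rare passed the low-count filter only through the marker-positive cells, so those tested had to be higher there. The eosinophil granule genes Prg2, Prg3, Ear1, Ear2 and Ear6 had 0 UMIs, and Epx had 3 and 5. Neutrophil genes were below the level of free RNA. S100a8 was at 30.2 and 103 CPM, against 1075 and 1995 CPM in other kept cells (-4.59 ± 0.23) and 748 and 1079 CPM in free RNA (-3.91 ± 0.24). Of 11 neutrophil genes, 0 rose and 7 fell. Of 8 B cell genes, 6 had 0 UMIs and 1 rose (Cd79b, with 2 and 5 UMIs, through which it passed the low-count filter). Of 6 tested epithelial genes, 1 rose (Cdh1, which encodes E-cadherin) and 4 fell. Of 5 tested genes of NK or innate lymphoid cells, 1 rose (Tyrobp, an adaptor shared with myeloid cells) and 1 fell. Of 5 tested erythroid genes, 0 rose and 3 fell, and of 4 tested MHC class II genes, 0 rose and 1 fell. Of 7 tested monocyte genes, 1 rose (Ms4a6c) and 1 fell (Lyz2, not called after thinning).

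T cell transcripts were present in the cells, at lower levels than in free RNA. The 20 T cell receptor complex genes summed to 8481 and 5975 CPM in the cells, against 15851 and 15543 CPM in other kept cells and 15106 and 15056 CPM in free RNA. The cells thus held 0.561 times the free RNA level in replicate 1 and 0.397 times in replicate 2. All 20 genes fell against other kept cells, with log2 fold changes of -1.56 to -0.77 and a median of -1.11. All 20 also fell against free RNA, with log2 fold changes of -1.53 to -0.61 and a median of -1.18. Cd4 was not called in either comparison after thinning, and Trac not against free RNA. Trac, the constant region of the alpha chain, was called against free RNA by edgeR (-0.61 ± 0.14, adjusted p = 0.0049) but not by DESeq2's Wald test.

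The effector genes of T cells followed the same pattern. Ccl5 was at 17158 and 10127 CPM in the cells, against 28282 and 31319 CPM in other kept cells and 26963 and 30096 CPM in free RNA. Gzma, granzyme A, was at 10339 and 5041 CPM, against 17981 and 17160 CPM in other kept cells and 12296 and 13671 CPM in free RNA. Gzma was called against free RNA by edgeR (-0.88 ± 0.18, adjusted p = 0.0016) and not by DESeq2. Of 18 effector genes, 15 fell and 0 rose in either comparison. As a sum, the list stood at 0.741 and 0.392 times free RNA.

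These sums cover unlike cells. To describe them, cells were set apart by their own T cell receptor complex transcripts and by Prss34, with limits chosen after the values were seen, so the kinds below carry no test. Cells under the 5th percentile of other kept cells of their library (9207 and 9272 CPM) were called low in T cell transcripts. Among those, the ones with Prss34 at 10000 CPM or more were called Prss34-high and the rest Prss34-low. The Prss34 limit lay in a gap, since the highest Prss34-low cell was at 7576 CPM of Prss34 and the lowest Prss34-high cell at 16798 CPM. The limit for T cell transcripts was closer to single cells. A Prss34-high cell of replicate 1 held 8 such UMIs where the limit was 9.32, and a cell of replicate 2 with T cell transcripts held 16 where it was 14.9, so each was within 2 UMIs of the other kind.

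There were 17 Prss34-high cells (7 in replicate 1 and 10 in replicate 2), 16 Prss34-low cells (9 and 7) and 44 cells with T cell transcripts as in other kept cells (37 and 7). Cells low in T cell transcripts were 0.0841% of kept cells in replicate 1 (95% interval 0.0481 to 0.137) and 0.107% in replicate 2 (0.0623 to 0.171). Cells with T cell transcripts were 0.195% (0.137 to 0.268) and 0.0440% (0.0177 to 0.0907). These intervals count cells of 1 library each and are no test between replicates.

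**Figure D2:**
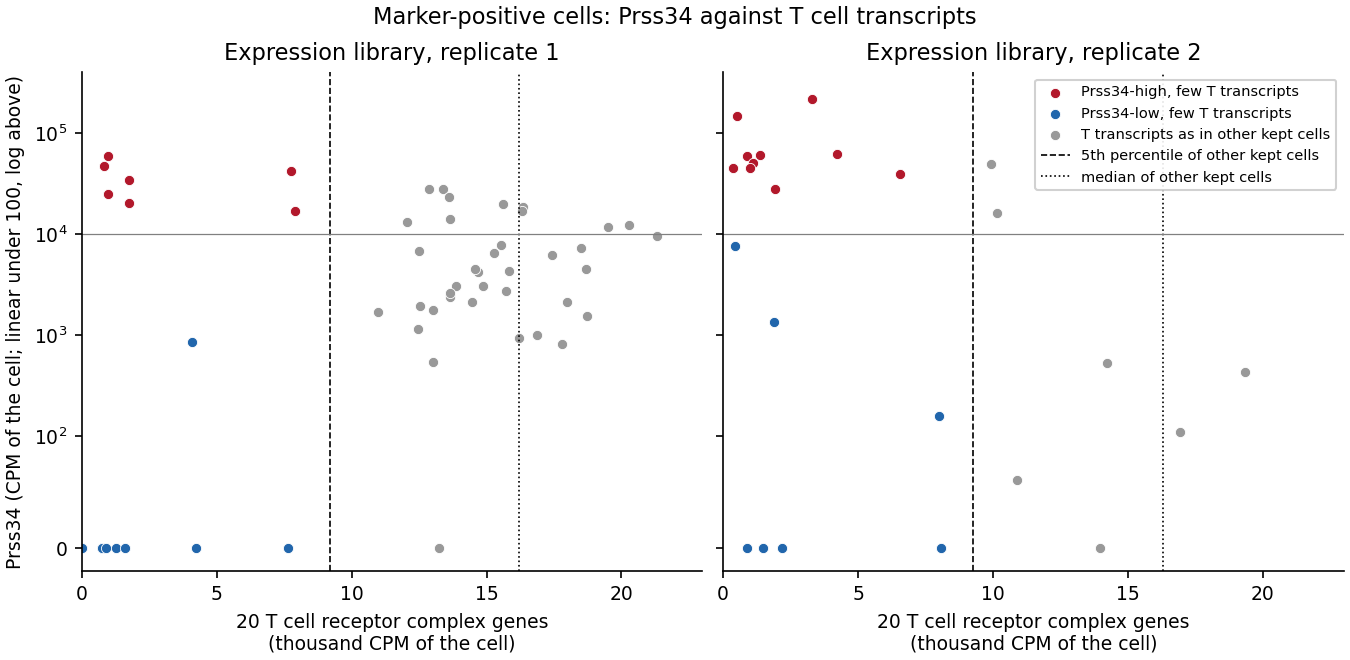
Each point is 1 of the 77 marker-positive cells, with the summed level of 20 T cell receptor complex genes (CPM, in units of 1000) against Prss34 (CPM, linear under 100 and log above), 1 panel per library. The 33 cells left of the dashed line fall into Prss34-high cells above 10000 CPM and Prss34-low cells, 12 of which had 0 Prss34; replicate 1 has 37 cells to the right of the line and replicate 2 has 7.

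Of the 17 Prss34-high cells, 16 had UMIs of all 6 rule genes, and the other held 3 among its 1012 UMIs. Prss34 was at 42355 CPM in replicate 1 and 58788 CPM in replicate 2, with a median of 178 and 459 UMIs per cell. The 6 genes together made up 6.37% and 9.16% of their UMIs. The Prss34-low cells held 8 and 40 Prss34 UMIs in all, or 159 and 1235 CPM, and 12 of 16 had 0. They nevertheless held Mcpt8 in 15 of 16 cells (2003 and 2872 CPM), Ms4a2 in 16 of 16 (972 and 1266 CPM) and Fcer1a in 12 of 16 (555 and 494 CPM). Prss34 UMIs per Mcpt8 UMI were 2.66 and 2.48 in the Prss34-high cells and 0.0792 and 0.430 in the Prss34-low cells. The kinds were cut on Prss34 itself, so its levels and zero counts had to differ. Its ratio to Mcpt8 follows from that cut in part. In replicate 2, 34 of the 40 UMIs were in 1 Prss34-low cell, and without it Prss34 was at 215 CPM and the ratio at 0.0759.

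Both kinds held basophil genes that the rule did not use. Of 27 such genes, 2 were higher in Prss34-high cells of both libraries, 20 were lower and 5 differed in direction between libraries or were tied. The same tally over all genes was not made, so this count does not set basophil genes apart from others. The 6 rule genes took 6.37% and 9.16% of UMIs in Prss34-high cells and 0.599% and 0.794% in Prss34-low cells, which lowers the CPM of other genes in the former. Gata2 was at 849 and 1333 CPM in Prss34-high cells and 992 and 865 CPM in Prss34-low cells. Cd200r3 was at 913 and 1123 CPM in Prss34-high cells and 972 and 1328 CPM in Prss34-low cells, and Fcer1g at 1922 and 2117 CPM in Prss34-high cells and 2539 and 2625 CPM in Prss34-low cells. All 33 cells held at least 1 UMI of Gata2, Cd200r3 or Hdc. Median depth was 5170 and 7118 UMIs in Prss34-high cells and 4018 and 4488 UMIs in Prss34-low cells.

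Of 12 progenitor and early granulocyte genes, 4 were higher in Prss34-high than in Prss34-low cells of both libraries (Mpo, Prtn3, Ctsg and Ms4a3), 1 was lower (Gata1) and 7 were split or tied. Here too, no tally over all genes was made. Ctsg, cathepsin G, was at 1762 and 3193 CPM in Prss34-high cells and 99.2 and 124 CPM in Prss34-low cells. Mpo, myeloperoxidase, was at 272 and 480 CPM and was present in 9 of 17 Prss34-high cells, while the 16 Prss34-low cells had 0 UMIs. Ms4a3, a marker of granulocyte and monocyte progenitors, was at 192 and 363 CPM in 8 of 17 Prss34-high cells, and Prss34-low cells had 0. Single cells weighed on both genes. In replicate 2, 1 Prss34-high cell held 24 Mpo and 16 Ms4a3 UMIs, more than the others there together. In replicate 1, the cell of 24289 UMIs held 10 Mpo UMIs, again more than the others together. Every Prss34-high cell of 9012 UMIs or more held Mpo, and below that depth only the cell of 2122 UMIs did. Ctsg was at 15 or more UMIs in every cell of that depth, and at 6 or fewer in the cells of 3961 to 5224 UMIs. The Prss34-low cells of 9309 and 12028 UMIs had 0 Mpo, and the rest of that kind were shallower. The part of depth in these differences was not tested. Clec12a (160 and 386 CPM), Cxcr4 (96.1 and 246 CPM), the receptor that retains cells in the bone marrow, and Lcn2 (144 and 211 CPM) were also at 0 in Prss34-low cells. Prss34-low cells held 50421 and 32378 UMIs in all, so a gene at 0 there can still be present at a low level. In replicate 1, the Prss34-high cell of 10498 UMIs held 4 Cxcr4 UMIs, more than the others of its kind there together. Top2a, a gene of dividing cells, was at 368 and 328 CPM in Prss34-high cells and 59.5 and 61.8 CPM in Prss34-low cells, but 26 of its 51 UMIs in Prss34-high cells were in 1 cell, and only 6 of 17 held it.

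Another set was higher in the Prss34-low cells. Ccl6 was at 4838 and 3649 CPM in Prss34-high cells and 12594 and 19489 CPM in Prss34-low cells. Cell by cell, the kinds overlapped in Ccl6. In replicate 1, the Prss34-high cell of 4119 UMIs held 180 Ccl6 UMIs, more than the others of its kind there together. In replicate 2, the Prss34-high cell of 1948 UMIs held 47. Prss34-high cells of 10498, 5170 and 16123 UMIs held 0, as did the Prss34-low cell with Mcpt4. Ifitm1 was at 481 and 257 CPM in Prss34-high cells and 3451 and 3150 CPM in Prss34-low cells. Hdc was at 961 and 889 CPM in Prss34-high cells and 1745 and 2316 CPM in Prss34-low cells, and Cyp11a1 at 625 and 749 CPM in Prss34-high cells and 1051 and 1390 CPM in Prss34-low cells. The chemokine and complement receptor genes Cxcr2 and C5ar1 were at 16.02 and 46.8 CPM and at 16.02 and 0 CPM in Prss34-high cells. In Prss34-low cells they were at 178 and 402 CPM and at 218 and 278 CPM, with Cxcr2 in 12 and C5ar1 in 11 of 16 cells.

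The early response genes and Csf1 went the same way as Ccl6. Fos was at 1426 and 597 CPM in Prss34-high cells and 4443 and 3675 CPM in Prss34-low cells, and Jun at 1842 and 1263 CPM in Prss34-high cells and 3768 and 3027 CPM in Prss34-low cells. Csf1 was at 144 and 164 CPM in Prss34-high cells and 813 and 494 CPM in Prss34-low cells. Il4 did not part the kinds in both libraries, with 128 and 140 CPM in Prss34-high cells and 833 and 124 CPM in Prss34-low cells; the cell with 28 Il4 UMIs was a Prss34-low cell, and without it replicate 1 stood at 365 CPM. The cell with Mcpt4 and Cma1 was also counted as Prss34-low, and without it Cpa3 in those cells of replicate 1 was at 522 CPM in place of 1249.

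**Figure D3:**
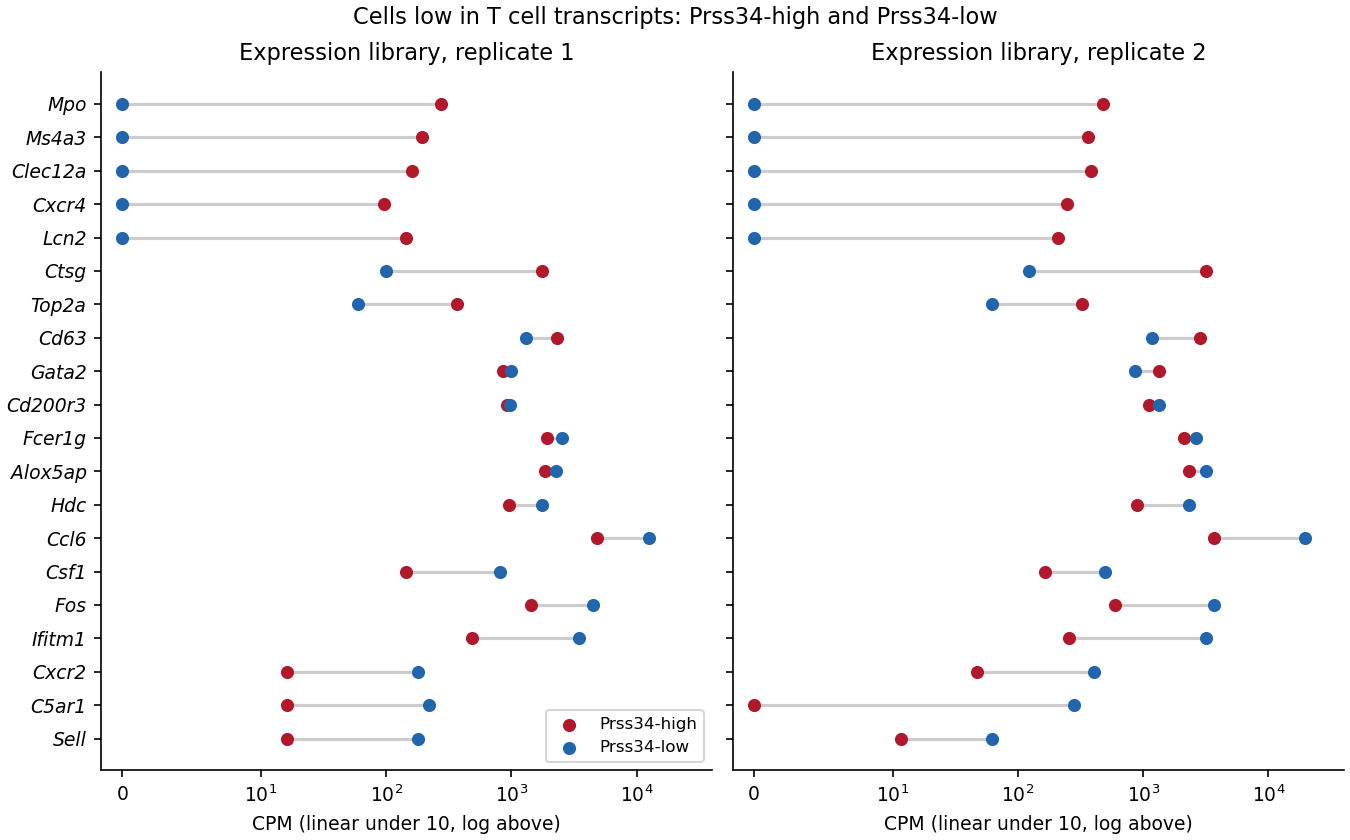
Summed level (CPM, linear under 10 and log above) of 20 genes in Prss34-high and Prss34-low cells that are low in T cell transcripts, 1 panel per library. Mpo, Ms4a3, Clec12a, Cxcr4 and Lcn2 are at 0 in the Prss34-low cells of both libraries, Gata2 and Cd200r3 lie close together, and Ccl6, Ifitm1, Cxcr2 and C5ar1 are higher in the Prss34-low cells.

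Against free RNA, the 2 kinds low in T cell transcripts lay below it gene by gene. The median of the 20 T cell receptor complex genes was 0.202 and 0.142 times free RNA in Prss34-high cells, with a range of 0.0561 to 0.796 in replicate 1 and 0 to 0.764 in replicate 2. In Prss34-low cells the median was 0.301 and 0.388 times, with ranges of 0 to 0.546 and 0.0624 to 0.790. All 20 genes were below free RNA in both kinds and both libraries. The kinds were cut on the sum of these 20 genes, at limits below the free RNA sum. A sum below free RNA was thus fixed by that choice, and these values are a description. Of the T cell effector genes, Ccl5 was at 5847 and 3755 CPM in Prss34-high cells and 2777 and 3861 CPM in Prss34-low cells, against 26963 and 30096 CPM in free RNA.

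Gzma differed between the libraries in Prss34-high cells, at 7401 and 515 CPM. A single cell of replicate 1, the deepest with 24289 UMIs and 4902 genes, held 425 of the 462 Gzma UMIs, all 21 Cd8a UMIs and 1020 Prss34 UMIs. It stood at the 99.6th percentile of depth among kept cells of its library. No doublet caller was used, so the part of 2 cells in 1 droplet was not tested. Above the 95th percentile of depth were 6 of 17 Prss34-high cells, 1 of 16 Prss34-low cells and 3 of 44 cells with T cell transcripts.

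**Figure D4:**
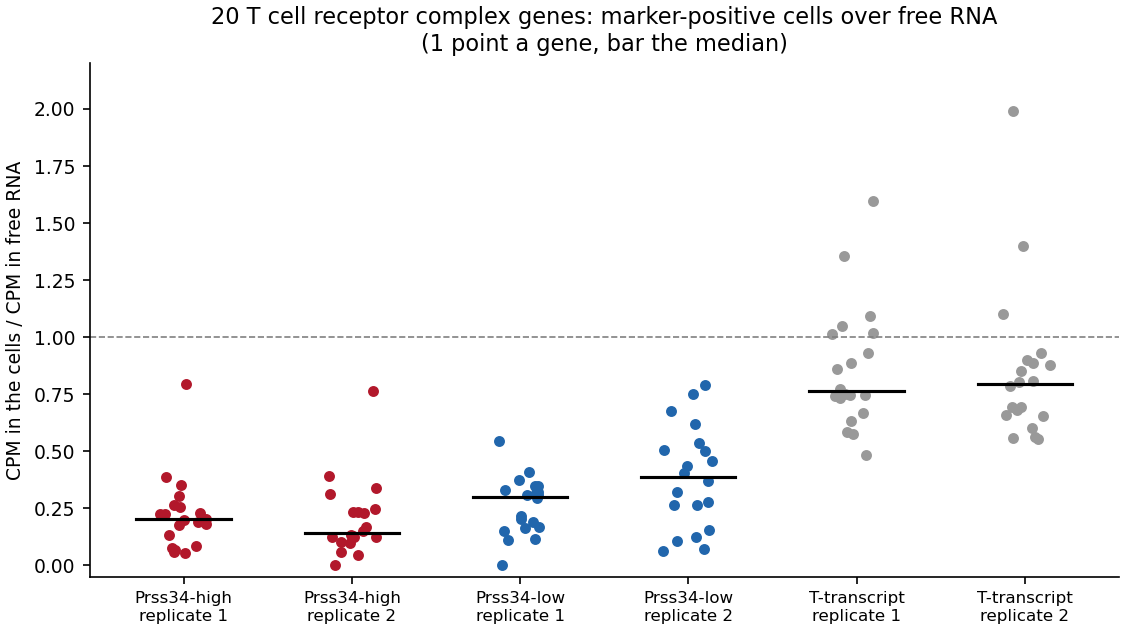
Level in the cells divided by the level in free RNA for 20 T cell receptor complex genes (1 point a gene, bar the median), by kind and library. Every point of the 2 kinds low in T cell transcripts lies below 1, with medians of 0.142 to 0.388, while the cells with T cell transcripts have medians of 0.763 and 0.793. The kinds were cut on the sum of these 20 genes, so their order is set by that choice.

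The 44 cells with T cell transcripts were unlike both. Their T cell receptor complex genes, by which they were set apart, stood at 14733 and 12218 CPM. The median was 0.763 and 0.793 times free RNA, with 14 and 17 of 20 genes below it. Ccl5 was at 33853 and 23083 CPM and Gzma at 17708 and 14210 CPM. Of the 44 cells, 31 held 2 or 3 of the rule genes. Median depth was 1946 and 3796 UMIs, and the median percentile of depth among kept cells was 31.9 and 52.2.

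Of 27 basophil genes outside the rule, 23 were above free RNA in the summed UMIs of these 44 cells in both libraries, 0 were below and 4 were split or tied. Against Prss34-high cells, 20 were lower in both libraries and 5 higher (Cd69, Ccl4, Ifitm1, Gpr171 and Cd244). Neither tally was made over all genes, so the counts do not set basophil genes apart from others. Prss34 was at 8574 and 7694 CPM, against 67.0 and 47.2 CPM in free RNA. Per cell, Prss34 had a median of 9 UMIs in replicate 1 and 1 UMI in replicate 2, and 19 of 44 cells held 10 or more. Prss34 per Mcpt8 UMI was 3.5 and 2.98. In replicate 2, 439 of the 444 Prss34 UMIs and 148 of the 149 Mcpt8 UMIs were in 2 of the 7 cells, and both of these have barcodes that are also among the kept cells of the other library. The other 5 cells held at most 2 Prss34 UMIs, with Prss34 at 147 CPM and Mcpt8 at 29.4 CPM, so the replicate 2 values of both genes rest on those 2 cells. These 5 cells also held 0 UMIs of Gata2, Cd200r3, Csf2rb, Il4, Il6, Cd63, Hdc and Ccl6. Fcer1g was at 29.4 CPM and Ifitm1 at 58.8 CPM in them. For the genes at 0, the replicate 2 level above free RNA thus rests on the same 2 cells. Relative to Prss34-high cells, Prss34 was at 0.202 and 0.131 times, Mcpt8 at 0.154 and 0.109 times, Fcer1g at 0.176 and 0.164 times and Tyrobp at 0.182 and 0.201 times. Ctsg was lower, at 0.0199 and 0.0378 times, and Cpa3 at 0.0809 and 0.0785 times. Of the 44 cells, 18 held a UMI of Gata2, Cd200r3 or Hdc, against all 33 of those low in T cell transcripts. The 44 had lower median depth than either kind among the 33, which limits detection. In other kept cells Gata2 was at 0.309 and 0.227 CPM, Cd200r3 at 0.645 and 0.455 CPM and Hdc at 2.87 and 5.61 CPM. The part of droplets with 2 cells, and of free RNA, in this mixture was not tested.

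Cells with 4 or more of the rule genes were also compared with those with 2 or 3, a contrast that the rule's own count defines and that follows depth (median 3509 and 4858.5 UMIs, against 1889 and 3273.5). Of 9255 genes, 183 were higher (1.98%) and 58 lower (0.627%), or 241 in either direction (2.6%), with the library as a block, and 91 and 28 without it. Among the 27 basophil genes outside the rule, 11 rose and 0 fell, with Cd63 at 1660 and 2067 CPM, against 164 and 109 CPM (3.85 ± 0.29), and Gata2 rising by 2.90 ± 0.38. Of 20 T cell receptor complex genes, 0 rose and 9 fell, with Trbc2 at -1.22 ± 0.17. Their sum was 0.401 and 0.277 times free RNA in cells with 4 or more and 0.875 and 0.852 times in cells with 2 or 3. Mpo and Ms4a3 had 0 UMIs in the cells with 2 or 3 genes, and 18 and 43 UMIs of Mpo were in the others.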

How the data were processed

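Single-cell expression was read from 2 droplet libraries (10x Genomics 3' v3). The deposited values are counts, raw UMI counts per gene and barcode over all barcodes, made by the authors with Cell Ranger 3.1.0 against mm10, per the submitters' processing notes. Cells were barcodes of 1000 or more UMIs, 500 or more genes and no more than 10% of UMIs from mitochondrial genes, with a median of 2688 and 3699 UMIs per cell. Doublets were not removed. Free RNA was the sum of barcodes under 100 UMIs (2894605 and 2583933 UMIs). Sums per class and library were tested with edgeR 4.0.16 (R 4.3.3; TMM, low-count filter, library as block because classes share it), with 2 residual degrees of freedom, or 3 for the split by marker number, and the 6 rule genes left out. The threshold was an adjusted p of 0.05. The fit was tested on simulated data, for marker-positive cells against other kept cells. Of 100 genes given a 4-fold rise, 95 were called, and of 100 given a fall to 0.25 times, 51 were called. Among unchanged genes, 5 were called. Falls were thus missed more often than rises of the same size.

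Alternatives were RLE size factors, no filter, DESeq2 1.42.0, no block, other member, depth and mitochondrial limits, thinning to 1500 UMIs, free RNA under 50 UMIs, and each library left out. Leaving out barcodes found in both libraries was added after seeing the data. Named genes were the rule genes, genes of 25 fixed lists (up to 4 of each minor list, by size) and the 10 largest rises and falls at 50 CPM or more; the text prints part of these. The kinds, and genes named for them, were picked with their values in view. The members and lists were chosen with earlier results of these data known. Promoters are RefSeq's and positions GENCODE's (release M21).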

Additional observations from a re-analysis of the deposited data

Results flagged for a closer look

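The hashtag libraries were used in no comparison, yet they held UMIs of the 6 rule genes, more than the 3 that a count of 0 allows. The library of replicate 1 had 18 such UMIs among 157432 and that of replicate 2 had 21 among 208698. Of the 18 and 21 UMIs, 8 and 12 were in barcodes of marker-positive cells of the same replicate's expression library.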

How the results depend on the processing

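Thinning each cell to 1500 UMIs gave 183 higher and 167 lower genes against other kept cells and 169 and 163 against free RNA, with 315 of 350 and 302 of 332 calls shared with those at full depth. DESeq2's Wald test gave 241 lower genes against other kept cells and 255 against free RNA. For 4 or more rule genes against 2 or 3, 109 genes were higher with no low-count filter and 103 by DESeq2, and without the replicate block 91 were higher and 28 lower. The share in replicate 1 was 0.195% with 3 rule genes asked for and 0.126% with 4. The other alternatives kept each count within 1.5 times. Ccl4, not called, was at -0.10 after thinning. Lag3 against free RNA, not called (0.12), was at -0.0641 and -0.17 with 3 and 4 rule genes asked for and -0.0234 with a higher UMI minimum. The cause was not tested. Leaving out 1 library leaves 1 sum a class, a value with no test. Depth limits genes of few UMIs: 3 UMIs in the cells are 15.1 and 17.1 CPM.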
